A study of Homo sapiens with 4 samples.

Results

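Transfer RNA (tRNA) genes are short genes copied many times over the human genome, and this account describes where peaks of the chromatin protein BRD8 lay at them in colorectal cancer cells. The RefSeq gene table of GRCh38 holds 443 genes of the tRNA type on chromosomes 1 to 22 and X. Of these, 429 have a position on the chromosome itself and were scored, among 58415 scored genes of all types. The other 14 sit on unplaced or alternate scaffolds, 13 listed under chromosome 1 and 1 under chromosome 6, and were not scored. A tRNA gene was called bound when the summit of a BRD8 peak, its point of highest enrichment, lay within 1 kb of either gene end. The choice of genes used no BRD8 value.

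The study profiled BRD8 by chromatin immunoprecipitation and sequencing (ChIP-seq) in HCT116 and SW480, both established human colorectal cancer lines, unmodified and untreated as far as the labels say. HCT116 cells were grown in McCoy's 5A medium and SW480 cells in Leibovitz's L-15 medium. Each line gave 1 BRD8 library, precipitated with 2 µg of a polyclonal antibody from chromatin fixed for 10 minutes and cut with micrococcal nuclease, and 1 input library without antibody. The peak list of each BRD8 library was analysed. With 1 BRD8 library per line, no comparison of the lines has a replicate check, no test was made and single peak values carry no error. Shares are followed by 95% Wilson intervals, which cover counting error only. The intervals treat genes as independent, although neighbouring tRNA genes can share a peak, so they may be too narrow.

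On chromosomes 1 to 22 and X there were 22303 HCT116 peaks and 12874 SW480 peaks. Their median summit pileup, the number of fragments covering the summit, was 24 in HCT116 and 26 in SW480, over a median local background of 5.64 and 6.92 fragments. The lists hold peaks and not expression. Of 12 genes chosen to mark colorectal epithelium, 3 (CDX2, EPCAM and KRT8) had a peak at an end in HCT116 and 0 in SW480, so the lists do not check the identity of the cells.

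RNA polymerase III transcribes tRNA genes. Its factor TFIIIC recognises an A box and a B box inside the gene, and TFIIIB then settles just upstream and recruits the polymerase. BRD8 is a bromodomain subunit of the TIP60/NuA4 complex, which acetylates histones and exchanges histone variants, and which is best known at promoters of protein-coding genes, the targets of RNA polymerase II.

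The internal promoter is shown first, for bound and unbound tRNA genes. RefSeq promoter windows of GRCh38.p14, each 300 bases long with 250 before and 50 after a gene start, hold no entry for tRNA genes themselves. However, 14 tRNA genes lie whole inside the window of another gene, which need not overlap them, and could be read there. Each sequence below runs 5′ to 3′ along the tRNA gene, and capitals mark first the A box letters and then the core letters of the B box.
TRI-TAT2-2 (isoleucine, chr6:27020346-27020439, plus strand, bound in both lines): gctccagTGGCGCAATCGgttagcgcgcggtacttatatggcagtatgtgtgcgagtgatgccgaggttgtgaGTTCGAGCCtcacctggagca
TRR-ACG2-1 (arginine, chr3:45688999-45689071, minus strand, bound in both lines): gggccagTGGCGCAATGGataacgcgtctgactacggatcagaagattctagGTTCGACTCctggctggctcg
TRT-TGT6-1 (threonine, chr5:181191687-181191758, minus strand, bound in HCT116): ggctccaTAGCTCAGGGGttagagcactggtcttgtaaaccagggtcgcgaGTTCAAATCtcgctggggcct
TRI-AAT8-1 (isoleucine, chr6:27668583-27668656, plus strand, bound in SW480): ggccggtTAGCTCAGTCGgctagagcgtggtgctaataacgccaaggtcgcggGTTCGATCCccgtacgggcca
TRN-GTT6-1 (asparagine, chr1:143735920-143735993, minus strand, bound in neither line): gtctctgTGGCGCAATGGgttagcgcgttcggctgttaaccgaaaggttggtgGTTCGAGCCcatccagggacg

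All 14 genes held both boxes. The strand of each was taken as the one that held the B box core. Of the 14, 8 were bound in HCT116 and 3 in SW480. As no gene lacked a box, these letters cannot tell bound from unbound genes. The A box, read from base 8 of each gene, was T, any base, G, any 3 bases, A, any 3 bases and G, and the B box core was GTTCNANNC. The fuller B box, this core with G before and C after it, was present in 12 of the 14 genes' windows on either strand and in 0.843% of all 35116 promoter windows. By contrast the loose A box letters were present in 78.4% of all windows, and GTTCNANNC, the core alone, in 7.48%. A TATAAA box was found in 1 of the 14 windows (11.5% of all windows) and the GC box GGGCGG in 2 (45.0%). The ETS motif CCGGAAG was in 1 (10.3%) and the E box CACGTG in 0 (7.26%), and the cyclic AMP response element was in 1 (1.85%), with none holding the NRF1 or YY1 letters (1.24% and 1.20%).

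Among these genes are 2 pairs that are identical letter for letter and differed in HCT116 binding. The histidine genes TRH-GTG1-9 and TRH-GTG1-3 share the sequence below, and so do the proline genes TRP-TGG3-2 and TRP-TGG3-5.
TRH-GTG1-9 (chr15:45201151-45201222) and TRH-GTG1-3 (chr1:148281365-148281436): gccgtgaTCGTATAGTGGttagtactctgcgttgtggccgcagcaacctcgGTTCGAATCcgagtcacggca
TRP-TGG3-2 (chr14:20684016-20684087) and TRP-TGG3-5 (chr16:3188094-3188165): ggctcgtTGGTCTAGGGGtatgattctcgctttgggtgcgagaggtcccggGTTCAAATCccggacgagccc

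TRH-GTG1-9, which lies 35 bp from the coding gene SHF, had a HCT116 peak with a fold enrichment of 3.99, while the nearest summit to TRH-GTG1-3 lay 611215 bp away. TRP-TGG3-2, 90 bp from ANG, the gene for angiogenin, had a HCT116 peak of fold 3.01. TRP-TGG3-5, 39 bp from the olfactory receptor gene OR1F1, had its nearest HCT116 summit 14312 bp away. None of the 4 genes was bound in SW480. How reads from identical copies were placed was not analysed, so an unbound copy means only that no peak was called there. Fold enrichment is the authors' ratio of summit pileup to local background, with 1 added to each, and is used here to rank peaks within a list.

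In HCT116, 154 of 429 tRNA genes were bound (35.9%, 31.5 to 40.5), beside 20.6% of all genes under the same rule. In SW480, 54 were bound (12.6%, 9.78 to 16.1), beside 10.5% of all genes, which lies inside the interval of the tRNA genes. Thus the tRNA share stood above that of all genes in HCT116 and near it in SW480. Protein-coding genes were bound more often than tRNA genes in both lines, at 44.3% in HCT116 and 22.3% in SW480. In all, 49 of 429 tRNA genes were bound in both lines, beside 9.22% of all genes. A further 105 were bound in HCT116 alone, 5 in SW480 alone and 270 in neither. Of the genes bound in SW480, 90.7% of tRNA genes and 88.0% of all genes were bound in HCT116 too. Of those bound in HCT116, 31.8% of tRNA genes and 44.8% of all genes were bound in SW480 too.

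Some tRNA genes lie inside or beside coding genes, so the count was split by that distance. Of the 53 tRNA genes outside coding genes and less than 2 kb from one, 39 were bound in HCT116 (73.6%, 60.4 to 83.6) and 15 in SW480 (28.3%, 17.97 to 41.6). The 58 coding genes with a tRNA gene within 2 kb of an end were themselves bound at similar shares, 75.9% (63.5 to 85.0) in HCT116 and 32.8% (22.1 to 45.6) in SW480, and they can share those peaks. Other RNA genes in the same position had lower HCT116 shares, 46.9% (44.5 to 49.3) for lncRNA, 39.6% (30.6 to 49.4) for miRNA and 29.5% (18.2 to 44.2) for snoRNA genes, whose SW480 shares were 26.1%, 22.8% and 29.5%. Inside coding genes lay 43 tRNA genes, of which HCT116 had 18 bound and SW480 7. In these positions a peak of the coding gene and a peak of the tRNA gene cannot be told apart.

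The 333 tRNA genes at least 2 kb from any coding gene had 97 bound in HCT116 (29.1%, 24.5 to 34.2) and 32 in SW480 (9.61%, 6.89 to 13.3), with 28 bound in both. At the same distance from coding genes, HCT116 peaks were found at 20 of 601 miRNA genes (3.33%), 12 of 529 snoRNA genes (2.27%), 8.57% of 105 snRNA genes and 4.48% of 9620 lncRNA genes. The SW480 shares were 2.00%, 1.13%, 5.71% and 2.47% in the same order. The interval of the tRNA genes lay above those of all 4 classes in HCT116 (the highest, for snRNA genes, reached 15.5%). In SW480 it lay above those of miRNA, snoRNA and lncRNA genes and overlapped that of snRNA genes (2.64 to 11.9). Of all positions on these chromosomes, 1.32% lay within 1 kb of a HCT116 summit and 0.761% within 1 kb of a SW480 summit. With the HCT116 list shortened to as many of its strongest peaks as SW480 has, 62 of the 333 genes were bound (18.6%, 14.8 to 23.1), beside 2.83% of the miRNA and 3.14% of the lncRNA genes at that distance. At a −log10 q of at least 5, which left 16.7% of all genes bound in HCT116 and 6.67% in SW480, the counts of these tRNA genes were 55 (16.5%) and 14 (4.204%, 2.52 to 6.93). The lncRNA genes at that distance then had 2.90% and 1.48% bound.

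**Figure D1:**
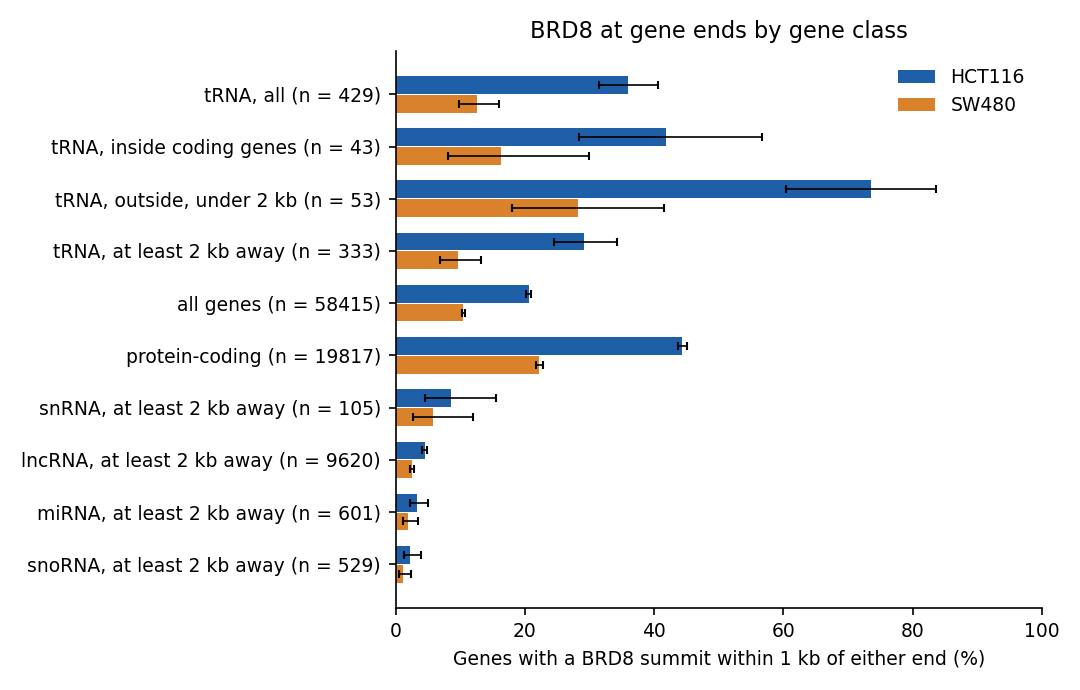
Percent of genes with a BRD8 summit within 1 kb of an end (bars, with 95% Wilson intervals) in HCT116 and SW480, for tRNA genes by distance from coding genes, for all and protein-coding genes, and for other RNA classes at least 2 kb from coding genes. The tRNA genes at that distance (29.1% and 9.61%) stand above the miRNA (3.33% and 2.00%) and snoRNA (2.27% and 1.13%) genes.

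Most bound tRNA genes far from coding genes had no other annotated gene end by their peak. Among the 97 bound in HCT116, the strongest peak of 76 had no end of any non-tRNA gene within 1 kb of its summit, and that of 18 had the end of a lncRNA gene. Among the 32 in SW480 the counts were 25 and 7.

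Few summits lay within a tRNA gene. In HCT116, 3 of 137 separate tRNA peaks had their summit within a tRNA gene, and the median distance to the nearest tRNA gene end was 378 bp (quartiles 177 and 551). In SW480, 0 of 41 summits fell within a tRNA gene, and the median was 444 bp (222 and 578). Between 101 and 500 bp from the gene lay 84 HCT116 and 26 SW480 summits, and within 100 bp lay 11 and 1. The tRNA genes are 70 to 108 bp long, so few positions lie within one. The counts of 3 and 0 therefore do not show that BRD8 avoids the genes. The called region of the strongest peak covered the whole gene for 59 of the 154 genes bound in HCT116 and for 4 of the 54 bound in SW480.

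Counted by the nearest summit to each gene at least 2 kb from coding genes, HCT116 density was 38.4% of genes per kb in the first 250 bp, 44.4% from 250 to 500 bp, 20.4% from 500 to 750 bp and 13.2% from 750 to 1000 bp. It fell to 6.61% per kb between 1000 and 1500 bp and was 2.70% between 4000 and 5000 bp. For coding genes the first 250 bp held the highest density, 87.5% per kb, followed by 53.0%. Thus the tRNA profile was flat or slightly lower next to the gene, where the coding profile peaked. In SW480 the tRNA densities in the 4 steps were 9.61%, 10.8%, 10.8% and 7.21%, from 8, 9, 9 and 6 genes.

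**Figure D2:**
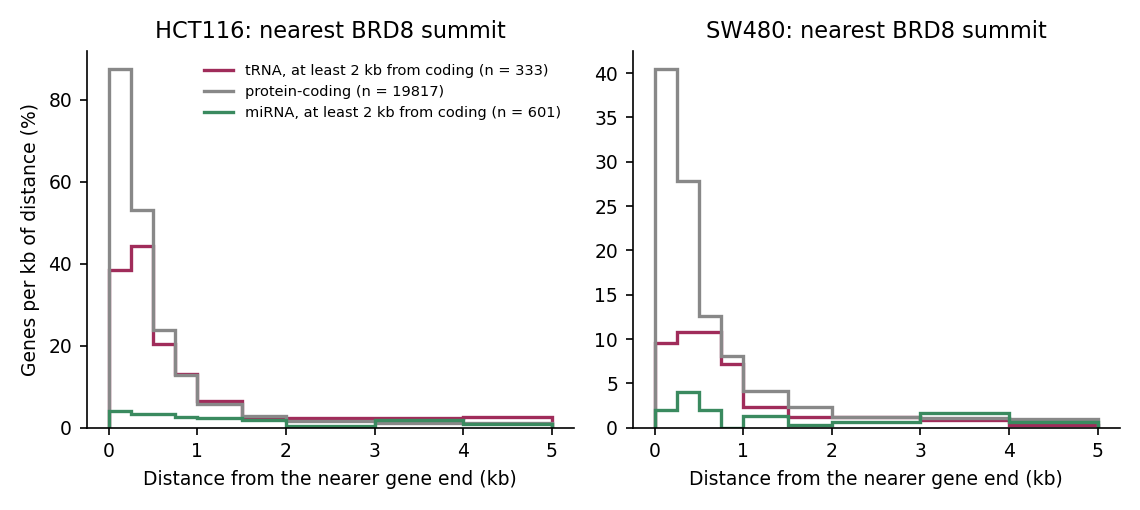
Percent of genes per kb whose nearest BRD8 summit lies at the distance on the x axis (kb from the nearer gene end), one panel per line with its own y scale, for tRNA and miRNA genes at least 2 kb from coding genes and for coding genes. In HCT116 the tRNA density is 38.4% per kb in the first 250 bp and 6.61% from 1000 to 1500 bp.

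The 1 kb limit cut through this distribution. In HCT116 the last genes inside it were TRY-GTA5-5 (981 bp, fold 3.01), TRW-CCA3-3 (987 bp, 4.27) and TRD-GTC2-11 (999 bp, 4.72), and the first outside were TRQ-CTG1-5 (1023 bp, 3.02), TRV-AAC5-1 (1034 bp, 3.22) and TRG-TCC3-1 (1054 bp, 4.01). In SW480 the last inside were TRA-CGC1-1 (961 bp, 3.93), TRR-TCT1-1 (976 bp, 3.21) and TRD-GTC2-11 (979 bp, 3.50), and the first outside were TRD-GTC2-9 (1007 bp, 3.53), TRW-CCA3-3 (1055 bp, 2.68) and TRX-CAT1-3 (1084 bp, 3.57).

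The strongest tRNA peaks in HCT116 lay mostly beside coding genes. TRR-CCT4-1, an arginine tRNA gene inside the splicing factor gene LUC7L2 on chromosome 7, had the highest fold, 9.13, from a pileup of 71 fragments over a background of 6.88, and in SW480 its fold was 2.50. Its peak also lay within 1 kb of the ends of LUC7L2 and FMC1. TRN-GTT2-5, an asparagine gene 887 bp from the proteasome subunit gene PSMB3, had 8.41 in HCT116 and 2.67 in SW480. TRV-AAC1-1, a valine gene 1094 bp from the zinc finger gene MYNN, had 7.86 in HCT116 and no peak within 1 kb in SW480, where the nearest summit was 1276 bp away. TRE-TTC1-2, a glutamate gene inside the ETS factor gene ELF1, had 7.64 and 3.32, with summits at different positions (41060168 in HCT116 and 41061625 in SW480). TRR-ACG1-3, an arginine gene 325 bp from the arginine methyltransferase gene PRMT5, had 7.39 and 6.12. TRX-CAT1-1, an initiator methionine gene 257 bp from ILF2, had 7.33 in HCT116 and its nearest SW480 summit lay 37020 bp away. These 6 of the 10 highest HCT116 values lay inside or under 2 kb from coding genes.

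The other 4 of the 10 lay far from coding genes. TRQ-TTG1-1, a glutamine gene on chromosome 17 (49192528 to 49192599), lies 13635 bp from the nearest coding gene, GNGT2. Its HCT116 peak, at 49191528 to 49192886, had a fold of 8.50 with 60 fragments over 6.18, and its SW480 peak had a fold of 6.06 with 35 over 4.94. Both summits lay 589 bp from the gene. TRL-CAG1-7, a leucine gene 10783 bp from BTN1A1 on chromosome 6, had folds of 7.51 and 5.01, with 41 and 30 fragments. TRG-GCC2-3 and TRX-CAT1-7, genes for glycine and initiator methionine, share 1 HCT116 peak of fold 7.77 on chromosome 6 (36 fragments over 3.76), and the nearest SW480 summits lay 7846 and 7431 bp from them.

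The order was different in SW480. TRE-CTC1-7, a glutamate gene 797 bp from NCOA7, a nuclear receptor coactivator gene, led with a fold of 7.66, above its HCT116 value of 4.31. TRD-GTC1-1 and TRW-CCA4-1, genes for aspartate and tryptophan on chromosome 12, share a SW480 peak of fold 6.20 and had 5.05 in HCT116. TRR-ACG2-1, shown above, had 6.19 in SW480 and 4.62 in HCT116, 325 bp from SACM1L, a phosphoinositide phosphatase gene. TRK-TTT3-1 and TRK-TTT3-2, lysine genes on chromosome 1, 9807 and 9304 bp from MDM4, had 4.87 in SW480 and 5.69 in HCT116. TRT-CGT3-1, a threonine gene 32005 bp from SCAND3, had 4.51 and 3.22 in the same order. These are different sites, and the HCT116 peak that overlapped the SW480 one had a fold of 2.77.

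Further tRNA genes far from coding genes were bound in both lines. TRI-TAT2-2, 111877 bp from H2BC11 and inside the promoter window of the lncRNA gene LARRPM, had 6.56 in HCT116 and 3.25 in SW480. TRF-GAA1-4, a phenylalanine gene, had 5.54 and 3.53. TRS-TGA3-1, a serine gene, had 5.59 and 3.57, and TRD-GTC2-11, for aspartate, had 4.72 and 3.50. The values were 4.10 and 3.49 at TRL-TAA1-1, 4.03 and 3.71 at TRR-CCG2-1, 4.01 and 2.67 at TRW-CCA1-1, 4.001 and 3.57 at TRQ-TTG3-1 and TRQ-TTG3-2, and 3.54 and 2.36 at TRT-TGT5-1. At TRS-TGA3-1, TRQ-TTG3-1 and TRQ-TTG3-2 the strongest peaks of the lines were different sites. Their SW480 peak overlapped a weaker HCT116 peak of fold 3.79.

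The peaks at tRNA genes were of ordinary strength for each list. Their median fold was 3.79 in HCT116 (range 2.33 to 9.13), beside 3.704 for all HCT116 peaks, and 3.32 in SW480 (1.95 to 7.66), beside 3.34 for all SW480 peaks. Peaks at the ends of coding genes had medians of 4.43 and 3.25. Within the tRNA peaks of HCT116, the 35 with a coding gene end within 1 kb had a median fold of 4.95 and the 77 with no other gene end 3.41. In SW480 the fold medians were 3.07 for 13 peaks with a coding end and 3.51 for 20 without any, but pileup (34 against 26.5), background (9.12 against 6.98) and −log10 q (5.20 against 4.53) were higher at the coding ends.

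The lines were next set side by side gene by gene. Of the tRNA genes bound in HCT116, 31.8% (24.98 to 39.5) were bound in SW480 too. The shares were 46.1% for coding genes and 44.8% for all genes bound in HCT116, both above the interval of the tRNA genes. Other RNA classes varied, with 33.5% for miRNA, 33.3% for snRNA, 44.0% for snoRNA and 43.7% (41.7 to 45.6) for lncRNA genes. At least 2 kb from coding genes the share was 28.9% for tRNA and 29.7% for lncRNA genes. In the other direction, 90.7% (80.1 to 96.0) of the tRNA genes bound in SW480 were bound in HCT116. This was close to the 91.8% of coding genes and 88.0% of all genes. The SW480 list is the shorter one. With equal numbers of peaks HCT116 had 111 bound tRNA genes (25.9%, 21.96 to 30.2), beside 17.1% of all genes and 37.7% of coding genes under that shortened list. The 105 genes bound in HCT116 alone had a median HCT116 fold of 3.81 and a median distance to the nearest SW480 summit of 23606 bp, and 15 of them had a SW480 summit within 5 kb. The 49 bound in both lines had a median HCT116 fold of 4.03, so fold differed little between these groups. Other HCT116 medians were higher at the 49 than at the 105 genes. They were 29 against 25 for pileup, 6.88 against 5.46 for background and 7.93 against 6.55 for −log10 q.

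At these 49 genes 37 pairs of peaks were compared. The HCT116 fold was the higher in 28 pairs and the HCT116 pileup in 21, while the SW480 background was the higher in 29. The median SW480 to HCT116 ratio was 0.909 for pileup (0.235 to 1.96), 1.11 for background and 0.836 for fold. No adjustment for sequencing depth was made here, so these ratios describe the lists and not amounts of BRD8. The summits lay within 250 bp of each other in 23 pairs, with a median shift of 69 bp. Folds of the 37 pairs had a Spearman rho of 0.206, given as a description, since pairs share libraries and neighbouring genes share peaks.

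The 5 genes bound in SW480 alone had folds of 1.95 to 4.25. TRE-TTC1-1, a glutamate gene 734 bp from VMA22 on chromosome 2, had a SW480 fold of 4.25 with 42 fragments over 9.12, and its nearest HCT116 summit lay 4415 bp away. TRA-CGC1-1 had 3.93 with 19 fragments, and a HCT116 summit lay 1537 bp away. TRI-AAT8-1 had 2.94 with 18 fragments, TRK-CTT1-1 had 2.53 with 19, and TRN-GTT2-4 had 1.95 with 38 fragments over a background of 19.0.

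**Figure D3:**
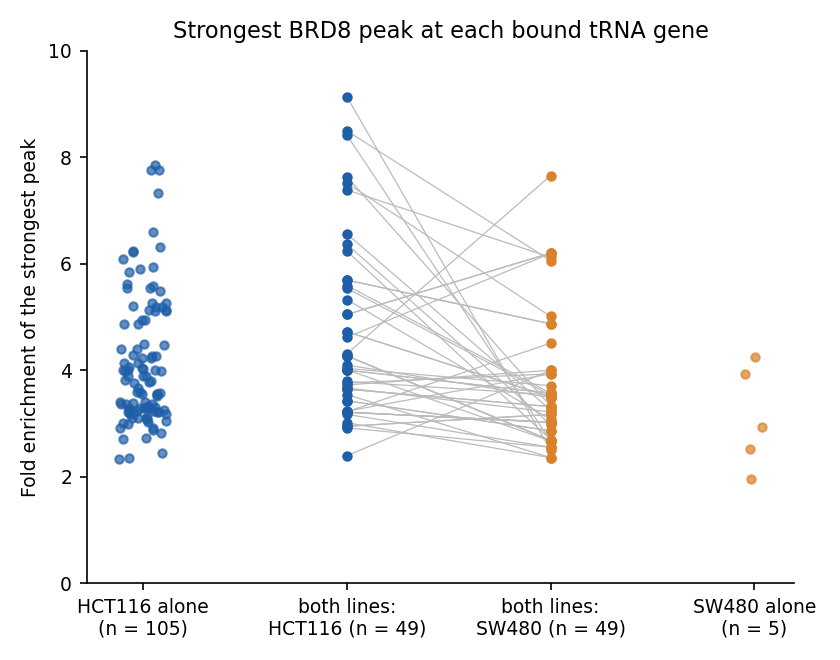
Fold enrichment (y axis) of the strongest BRD8 peak at each bound tRNA gene, 1 point per gene, for the 105 genes bound in HCT116 alone, the 49 bound in both lines (a line joins the values of a gene) and the 5 bound in SW480 alone. The highest values are 9.13 in HCT116 (TRR-CCT4-1) and 7.66 in SW480 (TRE-CTC1-7).

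Every tRNA carries 1 amino acid, and the genes were grouped by it. In HCT116 the highest shares were at initiator methionine, the tRNA that starts translation, with 6 of 8 genes bound, tryptophan with 5 of 7 and arginine with 16 of 26. Phenylalanine had 6 of 11 bound, leucine 16 of 32, threonine 10 of 20, serine 12 of 26, proline 9 of 20 and histidine 4 of 9. Tyrosine and aspartate each had 5 of 13 bound, glutamine 7 of 19, isoleucine 8 of 23, valine 10 of 30 and glutamate 5 of 15. Alanine had 11 of 37 bound, lysine 8 of 27, glycine 6 of 30 and asparagine 3 of 21. At the low end stood elongator methionine with 1 of 11, cysteine with 1 of 29 and selenocysteine with 0 of 2. The intervals of the other groups overlapped that of all tRNA genes (31.5 to 40.5), that for cysteine (0.611 to 17.2) lay below it, while those for arginine (42.5 to 77.6) and initiator methionine (40.9 to 92.9) lay above its upper bound of 40.5. Distance from coding genes moved with both: 10 of the 12 arginine genes inside or under 2 kb from coding genes were bound, against 6 of 14 farther away (21.4 to 67.4). Of the 6 initiator genes farther away 4 were bound (30.0 to 90.3), and both intervals overlapped that of all tRNA genes at that distance (24.5 to 34.2).

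SW480 had between 0 and 6 bound genes in each group, with 6 of 26 for arginine and 4 each for isoleucine, proline, serine and threonine. Cysteine and elongator methionine had 0 bound of 29 (up to 11.7%) and 0 of 11 (up to 25.9%). All SW480 intervals of these groups overlapped that of all tRNA genes (9.78 to 16.1), so no order among them is drawn.

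**Figure D4:**
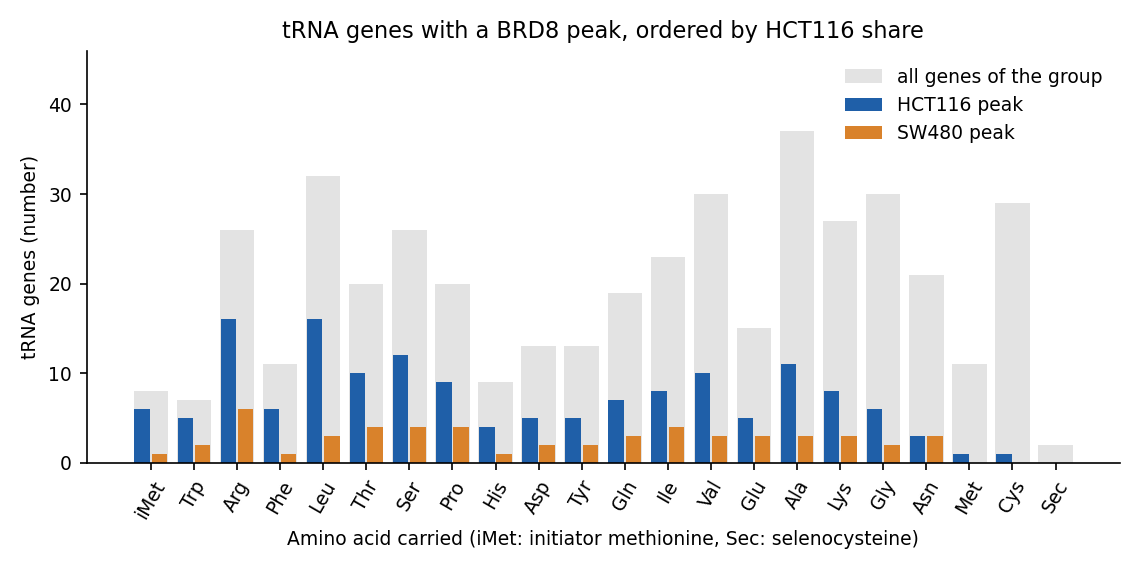
Number of tRNA genes for each amino acid (grey bars) and of those with a BRD8 peak in HCT116 (blue) and SW480 (orange), ordered by the HCT116 share. Alanine is the largest group (11 of 37 bound in HCT116), and cysteine has 1 of 29 bound in HCT116.

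The low count for cysteine was shared with a place in the genome. On chromosome 7, 18 cysteine genes lie with 1 serine gene between 149310190 and 149707740, and 0 of the 19 were bound in either line. Elsewhere 1 of 11 cysteine genes was bound, TRC-GCA4-1 on chromosome 17 with a HCT116 fold of 4.50, 695 bp from LASP1. The interval there (1.62 to 37.7) reached above the share of all tRNA genes.

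Both kinds of methionine gene carry the anticodon CAT, and they differed in HCT116. The 6 bound initiator genes were TRX-CAT1-1 (fold 7.33), TRX-CAT1-7 (7.77), TRX-CAT1-3 (5.59), TRX-CAT1-2 (5.33), TRX-CAT1-8 (3.81) and TRX-CAT1-4 (3.38). The unbound ones, TRX-CAT1-5 and TRX-CAT1-6, had their nearest HCT116 summits 38008 and 12491 bp away. Only TRX-CAT1-2, 992 bp from the histone gene H4C8, was bound in SW480, with a fold of 3.07. The 1 bound elongator gene was TRM-CAT6-1, inside FBXO31, with a HCT116 fold of 3.24. The intervals of the 2 kinds, 40.9 to 92.9 and 1.62 to 37.7, did not overlap in HCT116. Place differed too: 5 elongator genes lie in a run of 20 unbound tRNA genes on chromosome 6 (26577104 to 26828299). A further 1 lies in a run of 6 (57800211 to 57856473). These runs were drawn between bound tRNA genes, so by their making no gene in them was bound in either line. The contrast between the 2 kinds was singled out after its values were seen, and no test was made.

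Copies of one tRNA were bound unevenly. Genes named as copies of 1 mature tRNA formed 57 families of 2 or more copies, with 222 genes. In HCT116, all copies were bound in 10 families, some in 33 and none in 14, and in SW480 the counts were 1, 26 and 30. TRF-GAA1, for phenylalanine, had 5 of 6 copies bound in HCT116, TRD-GTC2, for aspartate, 4 of 11, TRH-GTG1, for histidine, 4 of 9, and TRL-CAG1, for leucine, 1 of 7. The names also number the tRNAs of each anticodon, and genes numbered 1, 2 and 3 had similar HCT116 shares of 44.0%, 44.2% and 44.4%. Those numbered 4 or higher had 22.4% bound (16.5 to 29.9). How reads from near-identical copies were placed was not analysed here.

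The chromosomes differed as well. On chromosome 1, 13 of 85 tRNA genes were bound in HCT116 (15.3%, 9.16 to 24.4), on chromosome 6, which carries the largest set, 49 of 154 (31.8%, 24.98 to 39.5), and on the others 92 of 190 (48.4%, 41.4 to 55.5). In SW480 the counts were 7, 14 and 33. Among genes at least 2 kb from coding genes, the HCT116 counts were 10 of 77, 44 of 146 and 43 of 110. On chromosome 12 HCT116 had peaks at all 9 tRNA genes and SW480 at 3. Chromosome 17 had 19 of 33 bound in HCT116 and 11 in SW480, whereas chromosomes 5, 15 and 16 had 8 of 18, 6 of 9 and 8 of 26 in HCT116 and 0 in SW480.

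tRNA genes no more than 10 kb from their neighbour were joined into clusters, which gave 216 clusters, 136 of them single genes. The largest, on chromosome 1 from 161440171 to 161480636, holds 24 genes, and 0 were bound in either line (the nearest HCT116 summit was 40731 bp and the nearest SW480 summit 126186 bp from any of them). A cluster of 8 genes on chromosome 6 from 28789770 to 28823389 had 0 bound as well. In contrast, all 8 genes of a cluster on chromosome 11 from 59550629 to 59566452 were bound in HCT116, by 4 separate peaks with folds of 2.72 to 4.26, and 4 of them in SW480, by 1 peak. A cluster of 12 genes on chromosome 6 from 26299677 to 26331515 had 7 bound in HCT116 and 3 in SW480. The 14 genes on chromosome 16 from 3150674 to 3192060 had 3 and 0 bound, and the 7 genes on chromosome 17 from 8220869 to 8227064 had 3 and 3. A cluster with 0 bound is one where no peak was called, and placement of reads among near-identical copies was not analysed.

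Of the 80 clusters with 2 or more genes, 21 had every gene bound in HCT116, 28 some and 31 none, and in SW480 the counts were 6, 11 and 63. By cluster size, 45 of 136 genes standing alone were bound in HCT116 (33.1%), 79 of 184 in clusters of 2 to 4 (42.9%), and 30 of 109 in larger ones (27.5%, 20.01 to 36.6). The SW480 shares of 13.2%, 13.6% and 10.1% lay closer together.

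**Figure D5:**
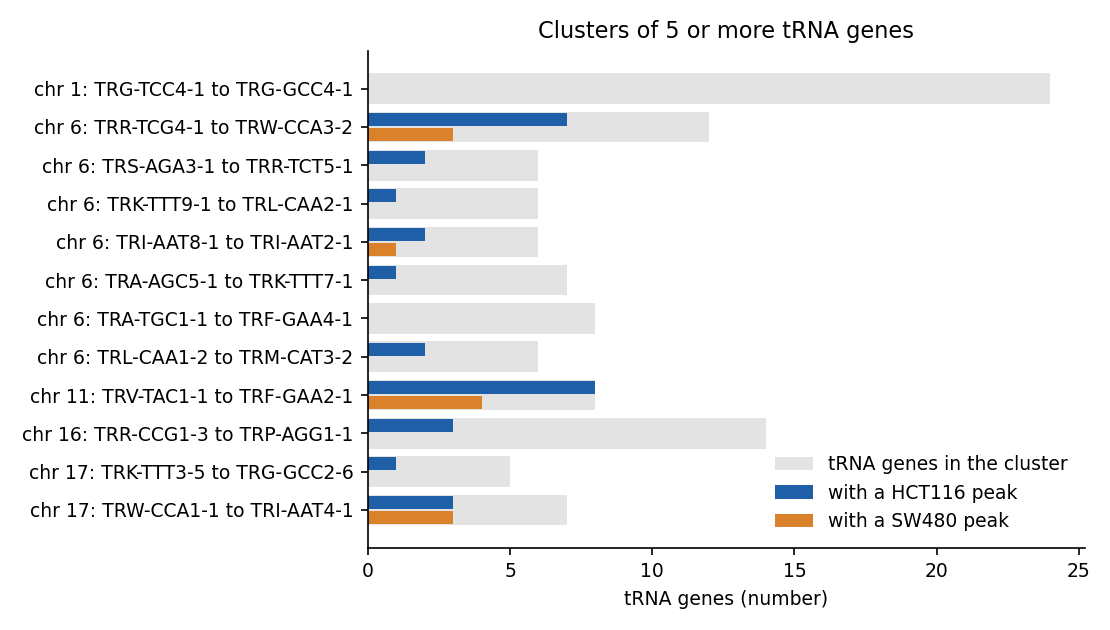
Number of tRNA genes (x axis) in each cluster of 5 or more, named by its first and last gene, with all genes in grey and those with a HCT116 or SW480 peak in blue and orange. The cluster of 24 genes on chromosome 1 has 0 bound, and the 8 genes on chromosome 11 have 8 bound in HCT116 and 4 in SW480.

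Because neighbours share peaks, genes are not independent counts. The 154 genes bound in HCT116 rested on 137 separate peaks, or 0.614% of its list, and the 54 in SW480 on 41, or 0.318%. In HCT116, 103 peaks had 1 tRNA gene within 1 kb, 28 had 2 and 6 had 3 or more, and in SW480 the counts were 28, 9 and 4. The most at 1 peak was 4 genes, TRV-TAC1-1, TRV-TAC2-1, TRR-TCT3-2 and TRL-TAA3-1, for valine, arginine and leucine on chromosome 11, whose folds were 3.21 in HCT116 and 3.02 in SW480. TRW-CCA3-3, TRS-GCT4-3, TRT-AGT1-1 and TRI-AAT5-5 on chromosome 17 also had a common HCT116 peak, with a fold of 4.27, and the last 3 of them shared a SW480 peak. Peaks with 3 tRNA genes included one at TRR-CCT1-1, TRR-CCT2-1 and TRR-TCG3-1 (HCT116 fold 3.90), one at TRL-AAG2-1, TRV-AAC2-1 and TRP-TGG3-1 (3.30), and one at TRA-CGC1-1, TRI-AAT5-1 and TRP-AGG2-2 (SW480 fold 3.93). TRQ-TTG3-1, TRQ-TTG3-2 and TRS-TGA3-1 shared a peak in both lines, with folds of 3.79 in HCT116 and 3.57 in SW480. Of the 137 HCT116 peaks, 31 overlapped a SW480 peak (22.6%), and of the 41 SW480 peaks 34 overlapped a HCT116 peak (82.9%).

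Other genes transcribed by RNA polymerase III were taken from a list of 37. In HCT116, 12 were bound (32.4%, 19.6 to 48.5), beside 20.6% of all genes. In SW480, 7 were bound (18.9%, 9.48 to 34.2), beside 10.5% of all genes, and 5 were bound in both lines. The shares of all genes lay inside these intervals, which also overlapped those of tRNA genes. RN7SL1, the RNA of the signal recognition particle, had the highest folds, 13.7 in HCT116 and 5.15 in SW480, but it overlaps the ribosomal protein gene RPS29. RNY5, a Y RNA gene 57197 bp from the nearest coding gene, had 9.50 and 4.97. RNU6ATAC, a minor spliceosome RNA, had 7.07 and 3.81, RPPH1, the RNase P RNA that trims tRNA 5′ ends, had 4.98 and 4.51, and RNY1 had 3.32 and 3.27. In HCT116 alone, folds were 5.19 at RNU6-9, 4.57 at RN7SL2, 3.94 at RNU6-1, 3.27 at RNU6-2, 3.22 at RNY4, 3.04 at VTRNA1-1 and 1.71 at RMRP. Of these bound genes, RPPH1, RMRP, RNU6-9 and RNU6-2 also lie close to coding genes, at 224, 273, 297 and 399 bp. RNU6-7 and RNU6-8 were bound in SW480 alone, by 1 peak of fold 3.34. The 17 genes of 5S ribosomal RNA on the list, neighbours on chromosome 1, were bound in neither line, which lowers the shares of the list. Placement of reads among these copies was not analysed.

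Coding genes for the tRNA machinery were bound often. Of 30 genes for RNA polymerase III, its factors and its regulators, 26 had a HCT116 peak and 13 a SW480 peak, beside 44.3% and 22.3% of all coding genes. GTF3C4 and GTF3C2, subunits of TFIIIC, had HCT116 folds of 17.5 and 14.7, and POLR3D, a polymerase subunit, had 9.85. The highest in SW480 were GTF3C6 (7.05), POLR3B (6.36) and GTF3C4 (4.37). TBP, MAF1 and GTF3C1 were bound in neither line. Of 27 genes for tRNA end processing, splicing, repair and export, 25 were bound in HCT116 and 15 in SW480. XPOT, which exports tRNA from the nucleus, had folds of 9.001 in HCT116 and 9.22 in SW480, RPP40 had 8.62 and 5.45, RPP14 had 7.55 and 4.19, and PRORP, the catalytic protein of mitochondrial RNase P, had 6.60 and 5.70.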

How the data were processed

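The peak lists of the 2 BRD8 libraries were used, and the inputs were left aside. Trimmomatic 0.33, Bowtie2 2.4.1, MACS2 and deepTools were run on GRCh38, per the submitters' processing notes. Treatment of duplicate and multiply mapped reads is not given in the sources used here. Peaks were called per library, and neither list goes past a q-value of 0.05. The deposited fold is a ratio of pileup to local background with 1 added to each, at the summit. Also deposited for that summit were the −log10 of its p-value and of its q-value, and a score that in nearly all rows is the latter times 10. Summit positions were taken from the deposited offset.

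Pileup and background were solved from fold and p. Peaks on chromosome Y (1 in HCT116, 4 in SW480) and other contigs (8 and 68) were left out. Gene rows of scaffolds listed under a chromosome (679) were left out. A gene's value in a line is its peak of highest fold there, which need not be the same site in both lines. Distance from coding genes is 0 inside one. The steps were tested on simulated data. Python 3.11.15, pandas 2.3.3, NumPy 2.4.6, SciPy 1.17.1 and Matplotlib 3.10.9 were used.

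Members and lists were chosen with earlier results of these data known. The genes named are, per line, the 10 bound tRNA genes of highest fold, up to 20 far from coding genes and bound in both lines, those bound in SW480 alone, the 3 on each side of the window limit and the 5 peaks with most tRNA genes. All bound genes of the list of other RNA polymerase III transcripts and the 3 of highest fold per line in the machinery and processing lists were also named. Further genes were named after their values were seen, to explain a group or show a sequence. Alternatives covered the window, the −log10 q, the peak number, the coding distance and whole-peak overlap.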

Additional observations from a re-analysis of the deposited data

How the results depend on the processing

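Counts of bound tRNA genes (154 in HCT116, 54 in SW480, 97 and 32 at least 2 kb from coding genes, 49 in both lines) were recomputed under other settings. With a window of 500 bp, SW480 had 30, 17 of them far from coding genes, and 22 genes were bound in both lines. At a −log10 q of at least 5, HCT116 had 99 and SW480 28, with 55 and 14 far from coding genes, and 22 in both. With HCT116 shortened to the SW480 number of peaks, 62 far genes were bound in HCT116. Other counts stayed within 1.5 times of those reported under these settings and under a window of 2 kb, a −log10 q of at least 2, overlap of the whole peak, 5 kb from coding genes, and scaffold rows kept as chromosome positions, the last chosen after seeing the data. The causes were not tested. No paired analysis was possible because each line has 1 BRD8 library. Median summit pileups of 26 (HCT116) and 30 (SW480) fragments at tRNA peaks limit precision, and unbound means only that no summit passed the caller's threshold.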
